A study of Mus musculus with 6 samples.

Results

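The gap junction connexins Gjb2, Gjb6, Gjb5 and Gja1 were followed in mouse back skin after cyclosporin A. Members were chosen by name, and every array probe whose accession maps to one of the 4 genes was taken. Gjb2 entered the list because it was high at day 7, so the day 7 values of all members are given as description, with no test. Of the 41174 probes on the array, 4 matched: 2 for Gjb2, 1 for Gjb5 and 1 for Gja1, or 3 of 16398 named genes. All 4 were among the 27933 probes bright enough to be analysed, 1 of the Gjb2 probes only through cyclosporin A at day 7. No probe was matched to Gjb6 by the naming used, and no value is given for it. The 18156 probes left unnamed may include one for Gjb6, so the array may still measure it.

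Both groups were back skin of C57/BL mice. One received cyclosporin A, an immunosuppressant that blocks the phosphatase calcineurin, and the control group received ethanol. Skin was taken 2, 4 and 7 days later. Each of 6 dual-colour arrays, 2 per day, set the RNA of 1 cyclosporin A sample (Cy5 dye) against 1 ethanol sample of the same day (Cy3 dye), so the comparison asks how expression under the drug differed from that under ethanol on each day. Dose, age and sex are not given in the sources used here, nor is the number of animals behind a sample. Each ratio divides the cyclosporin A signal by the ethanol signal and is given as log2, so that 1 is a doubling and 0 is no difference. The error is the standard error (SE) of a limma fit over all probes.

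With no dye swap, effects of dye and of treatment on a probe cannot be told apart. Days 2 and 4 were hybridized on 1 slide and day 7 on another, so slide and day 7 cannot be told apart. The median signal was 203 to 277 in Cy3 and 134.5 to 187 in Cy5, and the share of probes well above background was 43.2% to 56.4% for ethanol and 59.6% to 68.8% for cyclosporin A. Ratios of the 2 arrays of a day correlated across probes with r = 0.0247 at day 2, 0.425 at day 4 and 0.574 at day 7. The epidermal keratins Krt5, Krt14, Krt1 and Krt10 and the collagen Col1a1 were well above background in both channels on 6 of 6 arrays.

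Connexins are membrane proteins that assemble into hemichannels, and hemichannels of adjoining cells dock to form gap junctions, through which ions and small metabolites pass from cell to cell. The subunits present set what a channel lets through. Gja1 encodes connexin Cx43, the widespread connexin of epidermis, hair follicle and dermis. Gjb2 encodes Cx26, which is sparse in resting epidermis and found in follicles and in hyperproliferative skin. Gjb5 encodes Cx31.1, a connexin of differentiating keratinocytes, and Gjb6 encodes Cx30, also of skin appendages. In assembly GRCm38.p6, Gjb2 and Gjb6 lie on chromosome 14, Gjb5 on chromosome 4 and Gja1 on chromosome 10.

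The promoters are shown because the measured members went different ways at day 7. Each is the run of 250 bases before the annotated start in RefSeq (GRCm38.p6), 5′ to 3′ on the gene's strand, with capitals for every match, on either strand, to GGGCGG (GC box), TTTCC (core of NFAT sites), TGANTCA (AP-1) or CTTTGA (Lef1/TCF).
Gjb2, chr14:57104703-57104952, minus strand: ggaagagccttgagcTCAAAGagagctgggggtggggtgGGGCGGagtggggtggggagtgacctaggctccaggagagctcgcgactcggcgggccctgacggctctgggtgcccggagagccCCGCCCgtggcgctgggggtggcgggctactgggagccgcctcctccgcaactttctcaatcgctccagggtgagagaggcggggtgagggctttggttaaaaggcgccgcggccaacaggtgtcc
Gja1, chr10:56377050-56377299, plus strand: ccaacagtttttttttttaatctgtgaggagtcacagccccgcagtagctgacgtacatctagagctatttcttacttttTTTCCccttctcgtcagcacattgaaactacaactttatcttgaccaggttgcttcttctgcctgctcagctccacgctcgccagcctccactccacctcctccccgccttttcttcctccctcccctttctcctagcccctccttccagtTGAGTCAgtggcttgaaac
Gjb5, chr4:127358165-127358414, minus strand: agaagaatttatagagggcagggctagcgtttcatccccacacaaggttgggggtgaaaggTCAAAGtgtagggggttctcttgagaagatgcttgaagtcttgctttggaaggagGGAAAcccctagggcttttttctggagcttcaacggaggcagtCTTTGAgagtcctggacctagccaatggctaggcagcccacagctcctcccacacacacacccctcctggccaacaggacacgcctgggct
The Gjb2 window had 69.2% G and C, against 50% for Gja1, 54.4% for Gjb5 and a median of 52.4% over 32851 mouse promoters of the same length. GGGCGG occurred 2 times before Gjb2, with no match before Gja1 or Gjb5, and 32.7% of all promoters held it. TTTCC, the letters bound by the calcineurin-dependent NFAT factors, occurred 1 time each before Gja1 and Gjb5 and not before Gjb2, and 55.6% of promoters held it. TGANTCA was found 19 bases before the Gja1 start alone (6.75% of promoters). CTTTGA occurred 1 time before Gjb2 and 2 times before Gjb5 (13.8% of promoters). No 2 of these motifs overlapped in the letters printed. These are letter matches, and binding was not measured.

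Gjb2 was level with ethanol at day 2, somewhat higher under cyclosporin A at day 4 and many times higher at day 7. Its brighter probe read -0.08 and 0.04 on the day 2 arrays, 0.90 and 0.69 on the day 4 arrays, and 3.96 and 4.09 on the day 7 arrays. The arrays of each day lay close together and no day overlapped another. As folds, the day 7 arrays stood at 15.5 and 17.0 times ethanol and the day 4 arrays at 1.87 and 1.62 times.

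The day 7 mean of Gjb2 was 4.02 (SE 0.12, n = 2 arrays), which placed the gene 9 of 13472 named genes from the top, between Padi3 (4.42) and Krt35 (3.99). That rank describes the value by which the gene was picked. Across the array 2.59% of probes passed an adjusted p of 0.05 at day 7 by limma. On the earlier days Gjb2 stood 7892 of 13472 at day 2 and, already near the top, 123 of 13473 at day 4.

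The rule that picked Gjb2 did not use the earlier days, and these were tested. The list was still written with earlier results of these data known. The SE is also shared with the day 7 arrays. At day 4 the brighter probe had a mean of 0.80 and was above 0 on 2 of 2 arrays. It did not pass over all probes (SE 0.12, limma adjusted p = 0.181). At day 2 the mean was -0.02 (SE 0.12, adjusted p = 0.976 by limma). The mean of both days was 0.39 (SE 0.08, adjusted p = 0.0842 by limma), and the difference of day 4 from day 2 was 0.81 (SE 0.17, adjusted p = 0.999 by limma). The size of this difference was similar to the day 4 ratio itself, since the day 2 ratio was near 0.

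**Figure D1:**
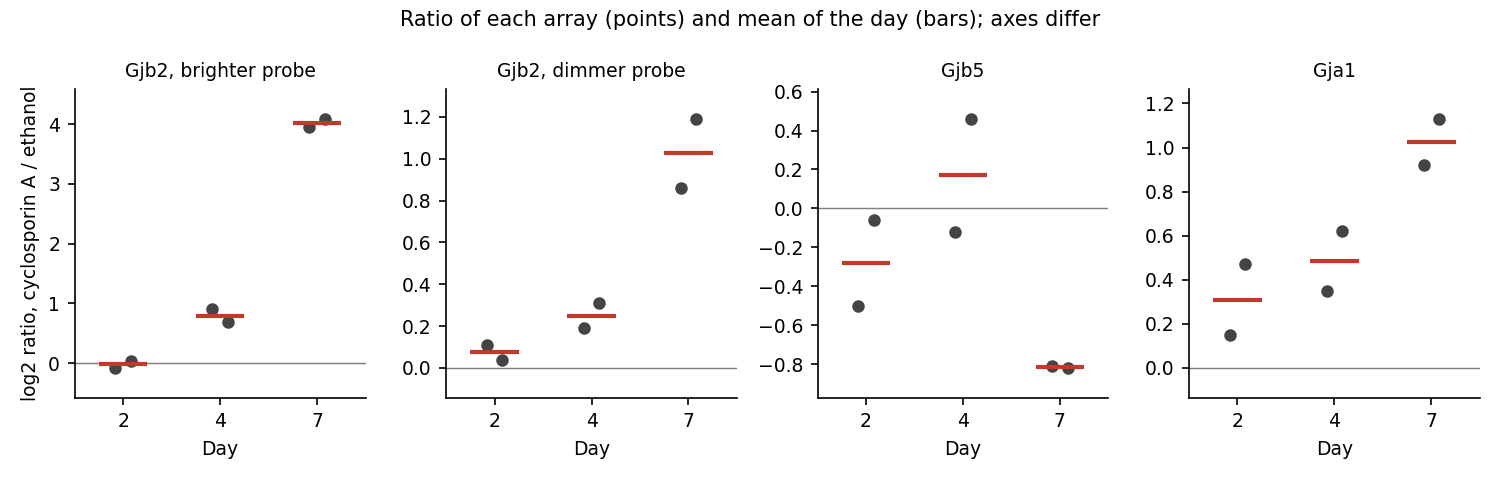
Log2 ratio of cyclosporin A over ethanol (vertical axis, separate scale per panel) for the 4 connexin probes at days 2, 4 and 7; points are single arrays and bars are the mean of 2. The brighter Gjb2 probe reaches 3.96 and 4.09 at day 7, Gja1 is above 0 on all 6 arrays, and Gjb5 is at -0.81 and -0.82 at day 7.

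The Gjb2 difference lay in the cyclosporin A channel. Normalized log2 levels of the brighter probe under ethanol were 8.91 and 9.08 at day 2, 8.58 and 8.85 at day 4, and 8.68 and 8.89 at day 7. Under cyclosporin A they were 8.83 and 9.13, then 9.48 and 9.55, then 12.64 and 12.98. Ordered by mean, cyclosporin A at day 7 (12.81) led cyclosporin A at day 4 (9.51), and both lay above every other sample. The remaining means of 9.0 (ethanol, day 2), 8.98 (cyclosporin A, day 2), 8.79 (ethanol, day 7) and 8.72 (ethanol, day 4) overlapped with their neighbours from array to array. Even before normalization the scanned Cy5 signal of this probe was 5716 and 9483 at day 7 and between 506 and 953.5 at days 2 and 4, while Cy3 stayed between 341 and 588.

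The second Gjb2 probe was much dimmer and gave a smaller ratio. It read 0.11 and 0.04 at day 2, 0.19 and 0.31 at day 4, and 0.86 and 1.19 at day 7. The sign at days 2 and 4 depended on the processing. The means turned to -0.22 and -0.35 with the deposited ratios, -0.58 and -0.35 with the scanner software's processed signals, and -0.38 and -0.15 with median centring. Its ethanol signal was not well above background on any array, and its cyclosporin A signal was so on 0 of 2 arrays at day 2, 1 of 2 at day 4 and 2 of 2 at day 7. The day 7 ratio is therefore limited by the ethanol signal. It averaged 2.03-fold, with 1.81 and 2.27 on single arrays and mean log2 levels of 7.71 against 6.69. Without a dye swap this ratio is also open to dye bias. The mean ratios of this probe were 0.08 at day 2 (adjusted p = 0.875 by limma) and 0.25 at day 4 (SE 0.13, adjusted p = 0.395 by limma). The dimmer probe passed the brightness filter only through cyclosporin A at day 7, so its high day 7 is not independent of the filter. Both probes had day 7 as their highest day. They differed in how far it stood above day 2, by 4.04 on the brighter probe and by 0.94 on the dimmer one. For the dimmer probe this difference was 2.86 with deposited ratios and 3.22 with processed signals, and its day 7 ratio was 2.64 with both. That day 7 ratio was 0.86 with median centring, 0.87 with no background correction and 0.95 with scale normalization. The gap between the probes thus depended on the processing. Of all probes, 0.222% passed for day 7 minus day 2 by limma, a difference in which the members were not tested.

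**Figure D2:**
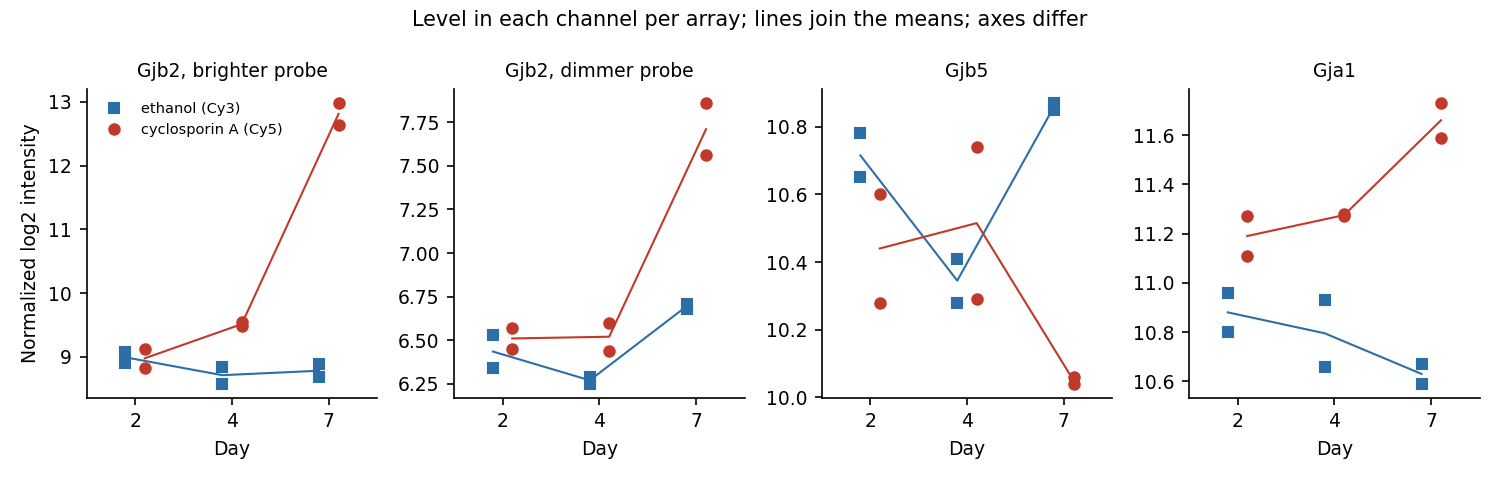
Normalized log2 intensity (vertical axis, separate scale per panel, not comparable between probes) of the ethanol channel (blue squares, Cy3) and the cyclosporin A channel (red circles, Cy5) on each array by day; lines join the means of 2 arrays. Ethanol levels of the brighter Gjb2 probe stay between 8.58 and 9.08 while cyclosporin A levels are 12.64 and 12.98 at day 7.

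Gja1 was higher under cyclosporin A on every array, by less than Gjb2 had at day 7. Its ratios were 0.15 and 0.47 at day 2, 0.35 and 0.62 at day 4, and 0.92 and 1.13 at day 7. Days 2 and 4 overlapped each other, and both day 7 arrays lay above all earlier ones. The day 7 mean was 1.03 (SE 0.14, n = 2 arrays), with folds of 1.89 and 2.19 on single arrays, and ranked 230 of 13472 named genes.

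On the days open to a test, Gja1 did not pass over all probes. The mean was 0.31 at day 2 (SE 0.14, adjusted p = 0.532 by limma) and 0.48 at day 4 (SE 0.14, adjusted p = 0.214 by limma). Both days together gave 0.40, and all 4 arrays were above 0. This did not pass either (SE 0.10, limma adjusted p = 0.0984). The difference of day 4 from day 2 was 0.18 (SE 0.20, adjusted p = 0.999 by limma), smaller than its error.

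Levels of Gja1 separated the groups more than the days. Ethanol levels were 10.96 and 10.80 at day 2, 10.93 and 10.66 at day 4, and 10.67 and 10.59 at day 7. Cyclosporin A levels were 11.11 and 11.27, then 11.28 and 11.27, then 11.59 and 11.73. The lowest cyclosporin A level thus lay above the highest ethanol level. Group and dye coincide here, so this separation cannot be told apart from an effect of dye on the probe. Within cyclosporin A, day 7 lay above the other days, and days 2 and 4 did not differ beyond their arrays. Within ethanol, day 4 overlapped both other days, and day 7 lay below day 2.

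The Gja1 probe was printed 10 times on each array, which gives a technical error. All 10 spots were above 0 on 5 of the 6 arrays, and 9 of 10 on the first day 2 array. The SD over spots was between 0.047 and 0.125 on 5 arrays. It was 0.38 on the first day 7 array, where single spots ran from 0.42 to 1.43. On the second day 7 array the spots ran from 0.88 to 1.27.

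**Figure D3:**
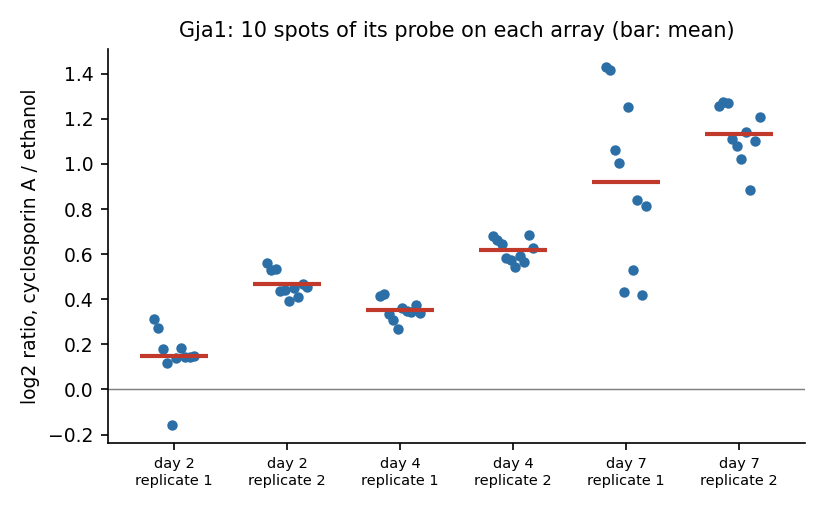
Log2 ratio of cyclosporin A over ethanol (vertical axis) of the 10 spots of the Gja1 probe on each of the 6 arrays (horizontal axis); bars are the spot mean. Spots of the first day 7 array spread from 0.42 to 1.43, the widest of the 6.

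Gjb5 had no steady direction over the first days and was lower under cyclosporin A at day 7. Its ratios were -0.50 and -0.06 at day 2, -0.12 and 0.46 at day 4, and -0.81 and -0.82 at day 7. The day 4 arrays lay on opposite sides of 0, while the day 7 arrays nearly coincided and lay below all 4 earlier ones. The day 7 mean was -0.81 (SE 0.17, n = 2 arrays), or 0.57 and 0.568 times ethanol, ranking 13290 of 13472 from the top. Its size depended on the processing. Over the alternatives the day 7 mean ran from -0.83 to -0.36, the smallest fall being with median centring.

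Gjb5 did not pass at day 2 (mean -0.28, SE 0.17, adjusted p = 0.637 by limma). It did not pass at day 4 either (mean 0.17, SE 0.17, adjusted p = 0.673 by limma), and the mean of both days was -0.05 (SE 0.12, adjusted p = 0.843 by limma). With one array in turn left out, the sign of the day 4 mean and of the mean of both days turned, so neither has a direction here.

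Levels of Gjb5 under ethanol were 10.78 and 10.65 at day 2, 10.41 and 10.28 at day 4, and 10.87 and 10.85 at day 7. Under cyclosporin A they were 10.28 and 10.60, then 10.29 and 10.74, then 10.06 and 10.04. Cyclosporin A at day 7 was below every other sample and ethanol at day 7 above every other, so the day 7 ratio drew on both channels. The 4 groups of days 2 and 4 overlapped with their neighbours in order.

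None of the 4 member probes passed at days 2 or 4, where 0% and 0.00358% of all probes passed by limma (0 and 1 probes). Genes were also counted by their brightest probe at an unadjusted p under 0.05 by limma. At day 4, 2 of the 3 measured genes were past it (Gjb2 and Gja1), against 15.4% of all probes. At day 2 it was 0 of 3, against 9.73%. The dimmer Gjb2 probe, not in this count, was not past it at day 4 (unadjusted p = 0.0884 by limma). For the mean of both days the count was 2 of 3, against 20.8% of all probes, and for day 4 minus day 2 it was 1 of 3 (Gjb2), against 2.22%. The median of the 3 genes was 0.48 at day 4, beside 0.03 over all probes.

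The other connexins analysed here gave no call. Of 13 such genes, 6 had a probe bright enough to analyse, 6 had only dimmer probes and 1 had no matched probe. None of their 8 analysed probes passed at any day by limma, and 1 of the 8 (the dimmer Gja5 probe) was past an unadjusted p of 0.05 at day 7, against 21.4% of all probes. By the brightest probe of each gene, the 6 day 7 values ran from -0.06 to 0.38, beside a median of 0.03 over all probes. Gjb1 and Gja10 among them passed the brightness filter through the cyclosporin A channel alone. The dimmer Gja5 probe, outside that range, had -0.35. Both Gjb2 and Gja1 lay above the range and Gjb5 below it. Gjb2 was picked for its rise at day 7, so its place there follows from the choice.

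The vascular connexins Gja4 and Gja5 showed no common direction. Gja4 had means of -0.07, 0.15 and -0.06 at days 2, 4 and 7 (day 7 adjusted p = 0.892 by limma). The 2 Gja5 probes disagreed in sign, with 0.23, 0.39 and 0.38 on the brighter and -0.43, -0.20 and -0.35 on the dimmer probe (day 7 adjusted p = 0.298 and 0.179 by limma). At day 7 the dimmer probe was well above background in neither channel on either array. Endothelial markers were level beside them, with 0 of 7 called at day 7 and a median of -0.11.

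Gjc1, a connexin of smooth muscle and heart, gave day 7 means of 0.05 and -0.06 on its 2 probes (adjusted p = 0.917 and 0.872 by limma). Gjd3 had 0.01 at day 7 (adjusted p = 0.98 by limma). Gjb1 and Gja10 were not well above background under ethanol on any array, which limits their day 7 ratios. Gjb1 stood at 1.49 and 1.07 times ethanol on single day 7 arrays and Gja10 at 1.11 and 1.07 times. Neither passed (adjusted p = 0.297 and 0.563 by limma). Pannexins, which form related channels that do not dock between cells, did not pass either. Panx1 had 0.10 and Panx3 0.14 at day 7 (adjusted p = 0.724 and 0.68 by limma).

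**Figure D4:**
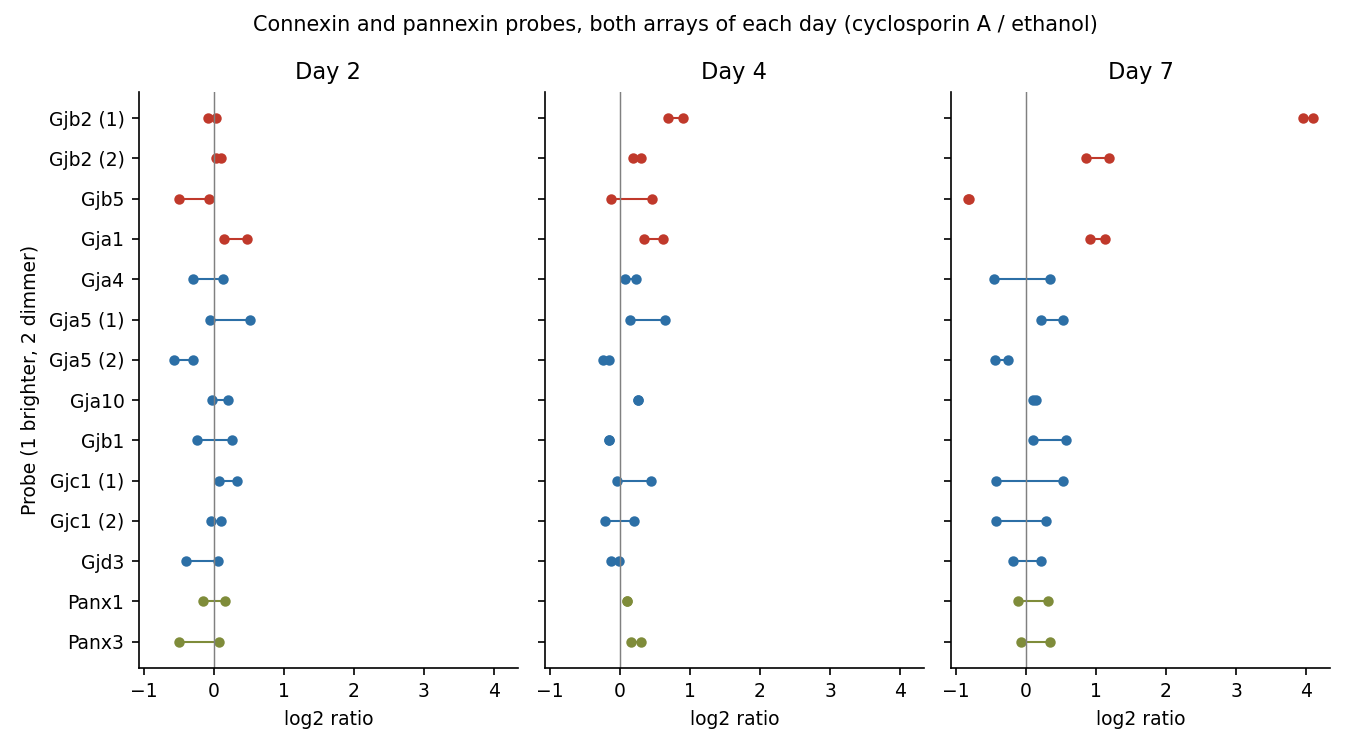
Log2 ratios of cyclosporin A over ethanol (horizontal axis) on both arrays (joined points) of days 2, 4 and 7 for the probes of the listed connexins (red), the other connexins (blue) and the pannexins (olive); 1 and 2 mark the brighter and dimmer probe of a gene. At day 7 the brighter Gjb2 probe (3.96 and 4.09) stands apart from the blue points, and the gene was picked for this rise. The day 7 means of the blue points, by the brightest probe of a gene, run from -0.06 to 0.38.

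Proteins that bind, traffic or phosphorylate connexins gave few calls and lay mostly below 0 at day 7. Of 18 such genes, 0 rose and 2 fell at day 7 by limma, when 0.544% of all probes fell, and 0 passed at days 2 and 4. At day 7, 5 of the 18 were above 0, and their median was -0.21, beside 0.03 over all probes. Tjp3, a scaffold of tight junctions from the family that anchors connexins, fell to -1.01 and -0.95 (mean -0.98, SE 0.16, adjusted p = 0.0348 by limma). Prkcd, a protein kinase C of differentiating keratinocytes, fell on its brighter probe to -1.14 and -0.86 (mean -1.0, SE 0.13, adjusted p = 0.0181 by limma) and on its dimmer probe by 0.85 (SE 0.15, adjusted p = 0.0404 by limma). Neither call held in every setting. Without either day 4 array the adjusted p was 0.088 for Tjp3, 0.0556 for the brighter Prkcd probe and 0.0576 for the dimmer one, and without a day 7 array it was up to 0.219, 0.144 and 0.211. Without either day 2 array the dimmer Prkcd probe had 0.0531. The scaffold Tjp1, the main binding partner of Gja1, had -0.23 on its brighter probe (adjusted p = 0.431 by limma), with -0.47 and 0.02 on single arrays. Its dimmer probe had 0.03 (adjusted p = 0.914 by limma).

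Markers of follicle and epidermal cells moved over the same days. Back skin is a mixture, so more cells of a type and more RNA per cell cannot be told apart here. At day 7, 2.04% of all probes were called higher and 0.544% lower, beside which the counts of markers stand. Inner root sheath markers had 3 of 7 genes measured and all 3 rose at day 7, among them Krt25 (5.20, adjusted p = 0.00063 by limma) and Krt27 (5.72, adjusted p = 7.42e-05 by limma), with list medians of 2.04 and 5.72 at days 4 and 7. At day 2 none of the 3 was well above background under ethanol, nor was Krt25 at day 4. Their summed level was 170000 to 200000 under cyclosporin A at day 7 and 2580 to 3820 under ethanol. The only probe called at day 4 was that of Krt71, of this list (2.04, adjusted p = 0.0435 by limma). No probe was called at day 4 without its second array or without either day 7 array, with the replicate number as a block, or under 5 other settings, and 4 were called without either day 2 array. Hair shaft keratins had 5 of 9 genes bright enough to analyse, and 2 of them were well above background under ethanol at day 7. Krt35 rose by 3.99 (adjusted p = 8.98e-05 by limma), with 0.72 at day 2 and 1.71 at day 4 (not passed). Krt86, above background on 1 of 2 ethanol arrays, rose by 3.62 (adjusted p = 0.000222 by limma). Krt31, Krt33a and Krt34 were not well above background under ethanol on any array and passed the filter through cyclosporin A alone. Their mean day 7 ratios were 6.11-, 65.0- and 22.1-fold, limited by the ethanol signal. The summed level of the 5 was 29900 to 44900 under cyclosporin A and 1720 to 2060 under ethanol.

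Gjb2 at 0.80 on day 4 lay below Krt35 (1.71), and at 4.02 on day 7 close to it (3.99). Proliferation markers had 6 of 7 genes measured and all 6 rose at day 7, with medians of 0.26, 1.07 and 1.55 and sums of 19400 to 25600 against 7110 to 7250. Melanocyte markers had 3 of 5 genes measured and all 3 rose at day 7, with medians of 1.10, 1.56 and 2.37 and sums of 31500 to 34500 against 5490 to 7200. The Gja1 ratios of 0.31, 0.48 and 1.03 lay below both medians on days 4 and 7.

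Epidermal markers lay on the other side at day 7. Suprabasal markers, 6 of 8 measured, had medians of 0.24, 0.15 and -0.69, with 1 lower call (Sbsn, -1.22, adjusted p = 0.0411 by limma) and sums of 248000 to 292000 against 410000 to 506000. Basal markers, 9 of 10 measured, had medians of 0.00, 0.13 and -0.29, with 1 lower call (Lamb3, -1.29, adjusted p = 0.0486 by limma) and sums of 178000 to 245000 against 261000 to 291000. Gjb5 at -0.81 was near the suprabasal median on day 7. The part of cell numbers in the Gjb2, Gja1 and Gjb5 values was not tested.

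**Figure D5:**
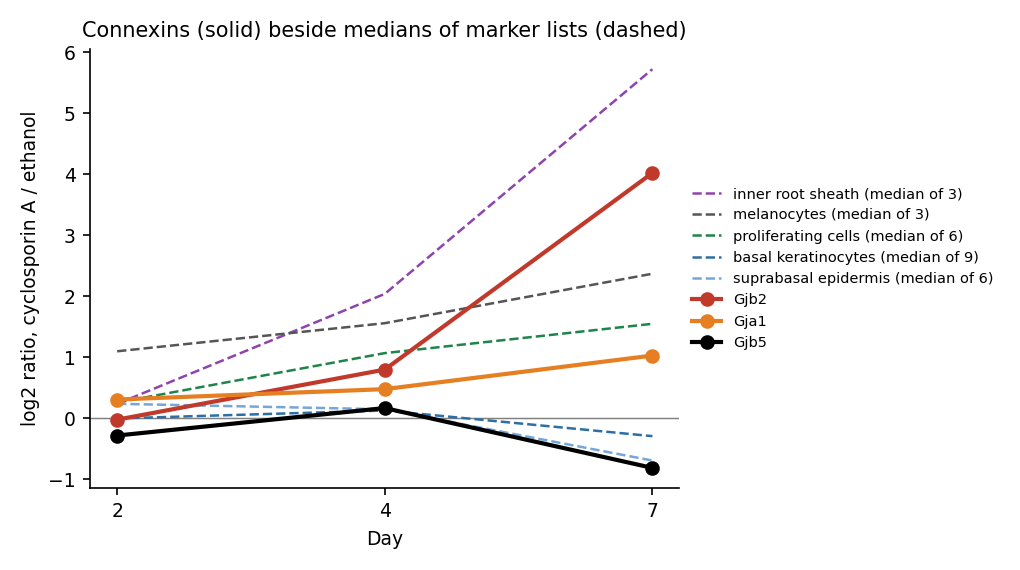
Mean log2 ratio of cyclosporin A over ethanol (vertical axis) by day for Gjb2 (brighter probe), Gja1 and Gjb5 (solid lines) and the medians of 5 marker lists (dashed lines); the inner root sheath genes were not well above background under ethanol at day 2. Gjb2 ends at 4.02, below the inner root sheath at 5.72, and Gjb5 at -0.81 beside the suprabasal markers at -0.69.

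The genes most like Gjb2 were found by the root mean square difference of log2 ratios over the 6 arrays among 13356 named genes. The nearest was S100a3, a calcium-binding protein of the hair cuticle (difference 0.46, r = 0.99 over 6 arrays). It was followed by the keratin-associated proteins Krtap5-1 (0.52) and Krtap5-4 (0.53), the collagen Col11a1 (0.54), the hormone gene Sct (0.55), and the deiminase Padi3 of inner root sheath and hair (0.56). Krt34 (0.56) and Krtap4-16 (0.60) completed the 8, and neither was well above background under ethanol on any array. The day 7 means of the other 6 ran from 3.24 to 4.42, around the 4.02 of Gjb2. At day 4 all 8 ran from 0.03 to 0.60, all under the 0.80 of Gjb2, and Col11a1 was the closest there. The 2 arrays of day 7 share a slide and hold nearly all of the variation, so these likenesses rest on them.

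For Gja1 the nearest were Gtf2ird1 (difference 0.10), Lgr5 (0.11), Whrn (0.13) and Slc7a5 (0.13). Lgr5 is a receptor of follicle stem cells and its means were 0.28, 0.50 and 1.06 at days 2, 4 and 7, beside 0.31, 0.48 and 1.03 for Gja1. The next gene differed by 0.14, so the order among these genes is a narrow one.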

How the data were processed

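The deposited scanner files hold the median intensity of each spot in Cy5 and Cy3 with its local background. Per the submitters' processing notes, the software was Agilent Feature Extraction 9.1. The deposited value table holds log10 ratios of Cy5 over Cy3, which did not differ from those in the scanner files (largest difference 0), and log2 ratios from the deposited table were tried as an alternative. Each file had 45018 spots. Left out were 1639 control spots and, per array, 15 to 126 outlier spots. Saturation affected 0 spots.

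Background was corrected by normexp with an offset of 50, each array was normalized by loess, and the spots of a probe were averaged (limma 3.58.1 in R 4.3.3). A probe was kept (27933 of 41174) if, on some day, both arrays had it well above background in Cy3 or in Cy5. Channel levels were scaled between arrays by Aquantile. Probes were named through accessions in RefSeq GRCm38.p6 (22951 matched, 67 more by synonym, 18156 unnamed). One mean per day was fitted with limma (3 residual and 3.931 prior degrees of freedom) and p-values were adjusted over all kept probes by Benjamini-Hochberg at 0.05. The fit was tested on simulated data.

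Members and lists were chosen with earlier results of these data known. Some connexins are not reported here. All kept probes of members, of the other connexins analysed and of pannexins were named, with partners called or of lowest p, the 8 genes nearest Gjb2 and the 4 nearest Gja1, and examples from each marker list. Those outside the rule, named after their values were seen, are Tjp1, Padi3 and Krt35 beside the rank of Gjb2, and Krt71, Krt34, Krt86, Sbsn and Lamb3. The brightest probe stood for a gene in lists. Beside those printed, no marker of fibroblasts, Schwann cells, adipocytes or companion layer and activation keratins was called at day 7, and 2 of 6 of skeletal muscle were lower.

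Titles number the samples of a day 1 and 2, while every description says replicate 1, and the titles were used. The labels speak of biological replicates and name no animals, so p-values reflect the spread of these samples alone, which may be technical. Deviations of same-numbered arrays correlated with r = 0.0348 (days 2 and 4), -0.27 (2 and 7) and -0.0235 (4 and 7). With 2 arrays a day each deviation is only the contrast of those 2, so this does not decide whether equal numbers mark paired samples. Precision is limited by the number of arrays, 2 per day.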

Additional observations from a re-analysis of the deposited data

Results flagged for a closer look

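Gjb1 stood out because the days opposed each other on all arrays. It read -0.15 and -0.15 at day 4 and 0.57 and 0.10 at day 7, a difference of 0.49 between the means. The difference was not tested, and the ethanol signal of this probe was not well above background on any array.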

How the results depend on the processing

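Among the alternatives, median centring in place of loess moved most values. It left the median of all probes at 0.36, 0.24 and 0.15 on days 2, 4 and 7, where loess left 0.03 on each, so its values are best read against those medians. With it Gjb2 passed at day 4 (1.15, adjusted p = 0.00955 by limma). Member probes called were then 1 at day 2, 3 at day 4 and 3 for the mean of both days, and other connexin probes called were 1, 0 and 5, and 1 at day 7, against 0 in the analysis reported. All probes called at day 7 were 5370 then, against 723 as reported, 270 with deposited ratios, 217 with processed signals, 316 with scale normalization, 383 with probes well above background everywhere, and 151 to 668 without single arrays. Calls at days 2 and 4 under median centring were 9646 and 6007, and without the second day 2 array 7 probes were called at day 2. The Gjb2 day 7 mean was 4.50 with deposited ratios and with processed signals, 4.51 with median centring, 3.90 with no background correction, 4.20 with an offset of 10, 3.70 with scale normalization, and 3.96 to 4.09 without single arrays. Its day 4 mean was 0.69 to 0.90 without single arrays, and no connexin probe was called then (0 to 0). Signs turned for values near 0. The brighter Gjb2 probe at day 2 was 0.46 with median centring, 0 with no background correction, and -0.08 to 0.04 without single arrays. The dimmer probe was -0.22, -0.38 and -0.58 at day 2, -0.35, -0.15 and -0.35 at day 4, and -0.28, -0.26 and -0.46 for both days, with deposited ratios, median centring and processed signals in turn. Its day 4 minus day 2 was -0.13 with deposited ratios. At day 7 the dimmer probe read 2.64 with deposited ratios and with processed signals, and 0.86 with median centring. Gjb5 was 0.38 at day 2 and 0.54 for both days with median centring (adjusted p = 0.1 and 0.00877 by limma), -0.20 to 0.09 for both days without single arrays (0.06 and 0.09 without the first array of day 2 and of day 4), and -0.12 at day 4 without the second array. Gja1 kept its sign throughout and passed with median centring alone (1.03 for days 2 and 4, adjusted p = 0.00132 by limma). The cause of these moves was not tested. Tjp3 and Prkcd kept their direction in every alternative. With deposited ratios the limma adjusted p was 0.205 for Tjp3 and 0.0676 and 0.101 for the brighter and dimmer Prkcd probes. With processed signals it was 0.203, 0.0748 and 0.106. Median centring gave smaller falls of -0.51, -0.51 and -0.48 (adjusted p = 0.0963, 0.0808 and 0.124 by limma). With scale normalization Tjp3 (0.072) and the dimmer Prkcd probe (0.0592) lost their calls. With the replicate number as a block, 341 probes were called at day 7, the dimmer Prkcd probe (0.0583) and Tjp3 (0.0535) lost their calls, and no connexin call changed. A slide block could not be fitted for day 7. The dimmer Gjb2 probe sat near background, which limits its ratio.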
